A study of Mus musculus with 2 samples.

Results

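The genes described here are 9 chemokines and chemokine receptors that steer white blood cells into, within and out of the bone marrow: the 4 receptors Cxcr2, Cxcr4, Ccr2 and Cx3cr1 and the 5 secreted ligands Cxcl2, Ccl3, Ccl4, Ccl6 and Ccl9. They were picked by symbol from 32286 measured features, and each symbol was found once. Their UMIs (unique molecular identifiers, each standing for 1 captured transcript) were counted in single marrow cells of mice, in 2 droplet libraries of transcript 3′ ends, 1 per genotype. The control genotype was Mx1Cre+/-;Rosa26+/+, and the other, called the MYC library, was Mx1Cre+/-;Rosa26LSL-MYC/LSL-MYC, with the transgene on both Rosa26 alleles. Both genotypes therefore carry Mx1-Cre, a recombinase under an interferon-inducible promoter that is active in hematopoietic cells and also in other tissues. LSL-MYC is a MYC transgene that stays silent until Cre cuts out a stop cassette before it. The age of the mice, any inducing treatment and the number of animals behind a library are not given in the sources used here. The series set marrow with MYC overexpressed from the stem cell onward beside control marrow.

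In the marrow, stromal cells make CXCL12, which holds neutrophils and progenitors in place through their receptor CXCR4, while CXCR2 and its ligands, CXCL2 among them, draw mature neutrophils out into the blood. CCR2 does the same for classical monocytes, and CX3CR1, the fractalkine receptor, marks monocytes that patrol vessel walls. CCL3 and CCL4 are inflammatory chemokines, and CCL6 and CCL9 are rodent CCR1 ligands made by myeloid cells.

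From the control, 17073 barcodes with 131884603 UMIs were deposited, and from the MYC genotype 14496 barcodes with 110012176 UMIs, and 14760 and 12645 cells were kept, with medians of 5321.5 and 6014 UMIs per cell. A separate feature named MYC had 0 UMIs in the control, which allows at most 0.0308 UMIs per 1e+06 (CPM), and 295 UMIs, or 2.87 CPM (95% counting interval 2.55 to 3.22), in the MYC library. Of the kept barcodes, 77 occurred in both libraries. Cells were clustered together, and 15 classes were named from fixed marker genes. All class names below stand for clusters that are alike to the named type, none of them checked by protein or morphology. Of the classes, 12 had at least 50 cells in each library and were compared. Mature neutrophils made up 26.6% of control cells and 26.3% of MYC cells, but different clusters held most of them: cluster 3, led by Il1b and Fgl2, held 2190 control and 211 MYC cells, and cluster 5, led by Cstdc4 and Stfa2l1, held 337 and 1608. Cluster 0, led by Mmp8 and Thbs1, was even at 1401 and 1508 cells. Macrophages, led by C1qb, C1qc and C1qa, were 17 control and 614 MYC cells. The nonclassical monocyte marker Cd300e was also among the 10 leading genes of that cluster. Conventional dendritic cells were led by H2-Ab1, H2-Eb1, H2-Aa and Cd74, with Mrc1, Apoe and the macrophage marker Axl also among the 10. Of the dendritic cell markers used, Clec9a, Zbtb46 and Cd209a were not among them. With 1 library per genotype no test was possible, genotype and library cannot be told apart, and every interval given covers counting error only.

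Levels are sums over the cells of a class in CPM of that class, so fewer transcripts and a larger rest of the transcriptome give the same value. A ratio was called when it was at least 2-fold with a 95% interval that excluded 1 and at least 50 UMIs of the gene were counted over both libraries. Among 82 pairs of a gene and a class with that many UMIs, 12 ratios were called higher and 7 lower in the MYC library. By class, the share of all genes tested that was called ranged from 3.23% in stem or multipotent progenitors to 13.6% in plasma cells. In mature neutrophils 3 of the 9 genes were called, Cxcl2 higher and Ccl3 and Ccl4 lower; there, 9.77% of all 9400 genes tested were called, 2.74% higher and 7.02% lower. The median log2 ratio of the 9 genes in that class was -0.76, beside -0.22 over all genes tested. The latter shift was -0.21 in immature neutrophils, -0.28 in granulocyte progenitors and -0.16 in monocytes, so a gene with no change relative to the others sits at these values and not at 0.

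**Figure D1:**
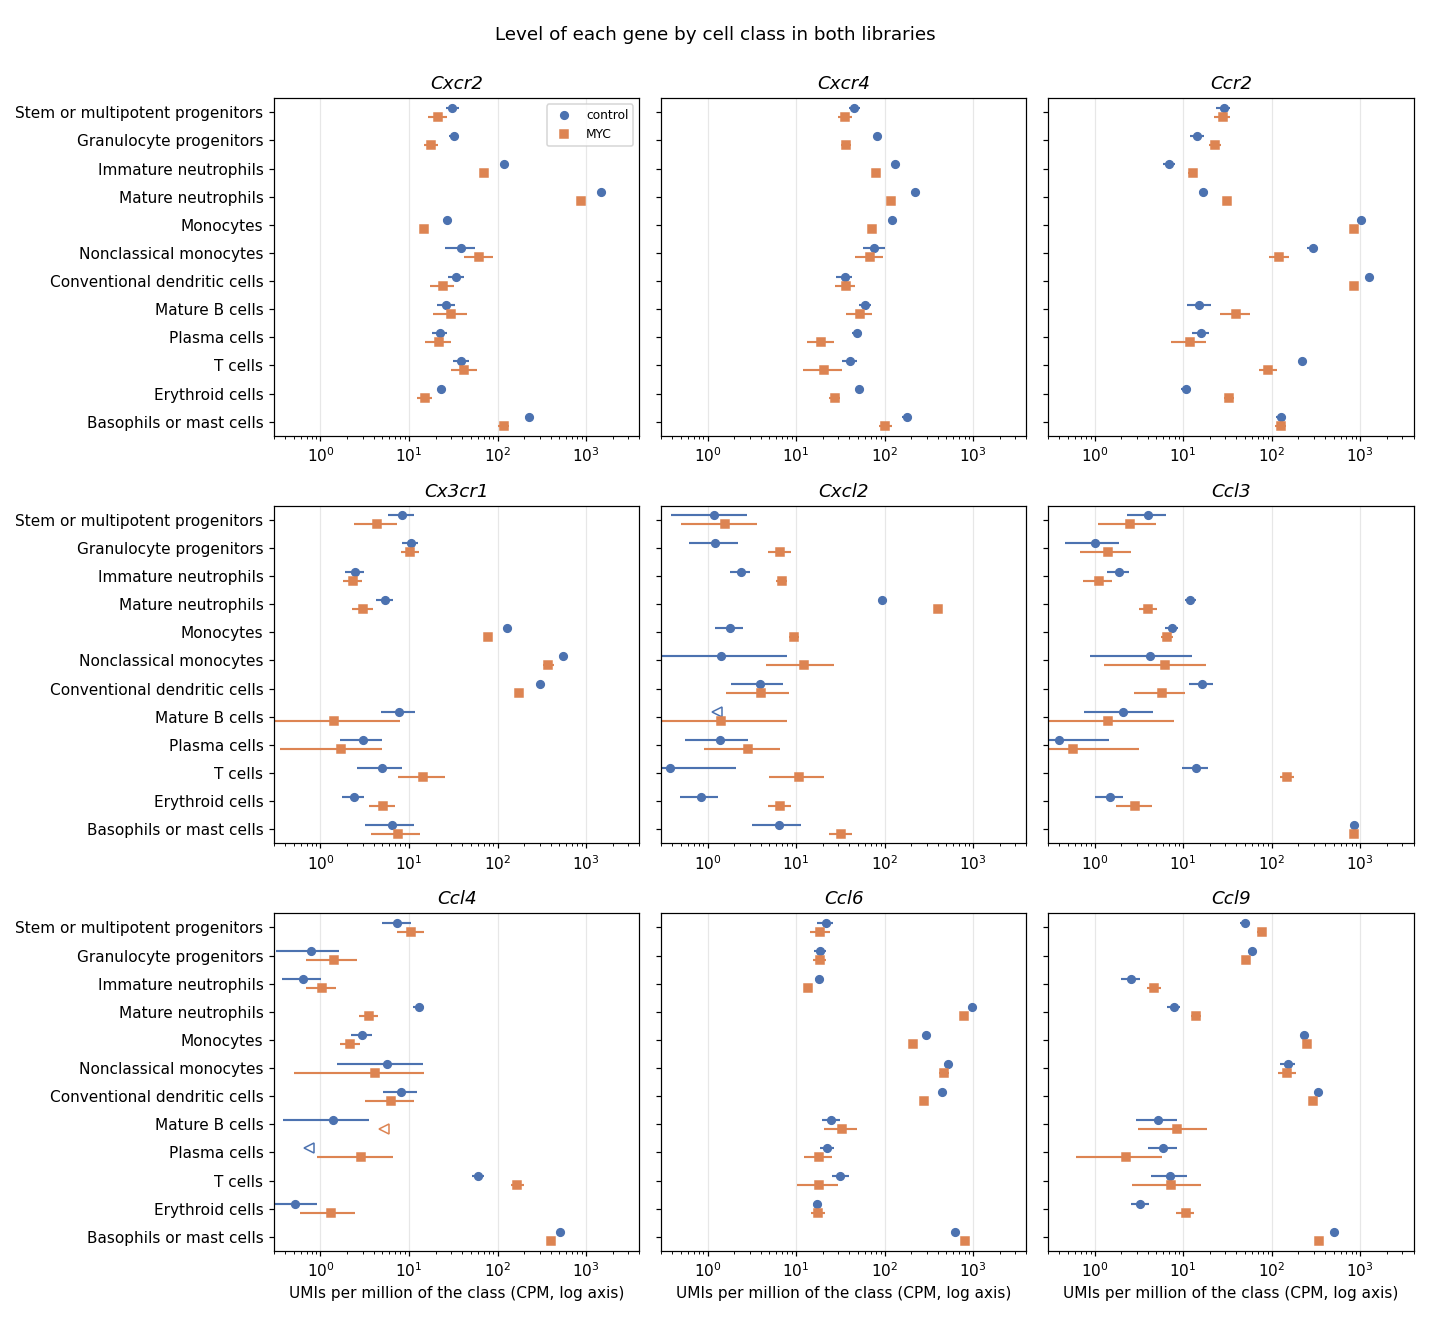
Level of each of the 9 genes (CPM of the class, log axis) in the 12 classes compared, control as blue circles and MYC as orange squares with 95% counting intervals; open triangles give the upper limit where no UMI was counted, and bars are cut at the axis. Cxcr2 and Cxcl2 peaked in mature neutrophils, Ccr2 in monocytes and conventional dendritic cells, Cx3cr1 in nonclassical monocytes, and Ccl3 and Ccl4 in basophils or mast cells.

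Cxcr2, the egress receptor (ENSMUSG00000026180, chromosome 1, 74153989 to 74161246, + strand, GRCm38), was a mature neutrophil transcript in both libraries. These cells held 78.7% of its control UMIs and 82.2% of its MYC UMIs, and 96.1% and 93.03% of them had at least 1 UMI of it. The level was 1488 CPM (1470 to 1507) in control and 879 (865 to 892) in MYC mature neutrophils, 0.59 of the control level, or -0.76 on the log2 scale (-0.79 to -0.73). Among the neutrophil stages, immature neutrophils followed far below, at 117 and 70.4 CPM (log2 ratio -0.73), and granulocyte progenitors at 32.0 and 17.9 CPM (-0.84). Each of the 3 neutrophil stages thus had the lower Cxcr2 level in the MYC library, with no overlap of the counting intervals, though none of the ratios reached 2-fold. Over the alternatives, the Cxcr2 ratio of immature neutrophils lay between -1.62, with cells under 5% mitochondrial UMIs, and -0.25, at a clustering resolution of 2, and that of granulocyte progenitors between -1.34 and -0.56. That filter and that resolution both set the classes anew, so these values need not come from like cells in both libraries.

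The Cxcr2 difference was present within each mature neutrophil cluster. In cluster 0 the level was 852 CPM in control and 566 in MYC cells (log2 ratio -0.59), in cluster 3 it was 2042 and 1442.5 (-0.50), and in cluster 5 it was 1784 and 1186 (-0.59). Relative to the median of all genes in mature neutrophils, by median-of-ratios scaling, the ratio was -0.54. When cells with at least 1000 UMIs and 500 genes were used, or only cells under 5% mitochondrial UMIs, it passed 2-fold at -1.14 and -1.12. Cells were clustered and named anew under these filters, and whether the class then held like stages in both libraries was not tested.

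Outside the neutrophil stages, Cxcr2 was highest in basophils or mast cells, at 224 CPM (202 to 248) in control and 117 (100.5 to 136) in MYC cells, and 64.5% and 51.4% of these cells had a UMI. In this class the summed markers of mature neutrophils were 1579 and 1703 CPM and those of immature neutrophils 6245 and 4559 CPM; their part in the Cxcr2 value was not tested. Erythroid cells, which should lack Cxcr2, gave 23.1 and 15.03 CPM with a UMI in 13.9% and 7.78% of cells, at median depths of 11256 and 12287 UMIs. The levels in monocytes (26.7 and 14.8 CPM), control mature B cells (26.4) and plasma cells (22.2 and 21.6) were close to that background and are not read as expression, and granulocyte progenitors, with median depths of 19798 and 18689.5 UMIs, lay little above it. MYC mature B cells had 29.8 CPM (18.5 to 45.6) of Cxcr2 from 21 UMIs, above the erythroid level, with summed mature neutrophil markers of 439 and 1593 CPM in mature B cells, whose part was not tested.

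Cxcr4, the retention receptor (ENSMUSG00000045382, chromosome 1, 128588199 to 128592293, − strand), was spread over more classes. Mature neutrophils held 27.3% of its control UMIs and immature neutrophils 26.5%, with 28.9% and 29.4% in the MYC library, and monocytes 16.01% and 25.4%. In mature neutrophils the level was 218 CPM (211 to 225) in control and 118 (113 to 123) in MYC cells, a log2 ratio of -0.88 (-0.96 to -0.80). Immature neutrophils had 130.1 and 79.3 CPM (-0.71) and monocytes 121 and 72.3 CPM (-0.75). In granulocyte progenitors 81.3 CPM (75.5 to 87.5) stood beside 36.8 (32.4 to 41.5), a log2 ratio of -1.15 (-1.36 to -0.94) that was called lower. Of 7 of these genes with enough UMIs in granulocyte progenitors, 2 were called, Cxcl2 higher and Cxcr4 lower, where 5.01% of all 9646 genes tested were called. The Cxcr4 call was lost under median-of-ratios scaling (-0.87), at a clustering resolution of 0.5 (-0.91) and with cells classified by markers alone (-0.70).

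The order of Cxcr4 levels along the neutrophil stages was the same in both libraries, from granulocyte progenitors up to mature neutrophils, with intervals that did not overlap between neighbouring stages. Within the mature clusters 0, 3 and 5 the log2 ratios were -0.75, -0.41 and -0.85. Plasma cells also had a called Cxcr4 ratio, with 48.5 and 19.3 CPM (-1.33, -1.89 to -0.81), the only gene of the 9 called there, where 13.6% of 6292 genes tested were called and 6.96% were called lower; the MYC value rested on 34 UMIs, and neither level was above that of erythroid cells in the same library. In plasma cells the summed plasma cell markers were 24144 and 12812 CPM, those of monocytes 389 and 3104 CPM and those of granulocyte progenitors 878 and 161 CPM; their part in the Cxcr4 ratio was not tested. Basophils or mast cells had 179 and 102 CPM (-0.80). B progenitors had 145 CPM in the control and only 16 cells in the MYC library. In erythroid cells 51.2 and 27.3 CPM were counted (-0.91), with a UMI in 47.0% and 32.3% of cells. The Cxcr4 ratio had an interval that included 0 in conventional dendritic cells (0.04, -0.45 to 0.52), nonclassical monocytes (-0.18, -0.85 to 0.47) and mature B cells (-0.19, -0.75 to 0.33).

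With the classes as defined here, the balance of both neutrophil receptors differed more between immature and mature neutrophils than between libraries. Cxcr2 made up 28.2% (25.5 to 31.1) of the summed Cxcr2 and Cxcr4 UMIs in control granulocyte progenitors, 47.3% (46.1 to 48.5) in immature and 87.2% (86.8 to 87.6) in mature neutrophils. In the MYC library these shares were 32.7% (28.1 to 37.7), 47.0% (45.5 to 48.6) and 88.1% (87.6 to 88.6). Erythroid cells gave 31.1% (28.8 to 33.4) and 35.5% (30.02 to 41.3), which overlapped the granulocyte progenitor shares, so the latter are at the background of this measure. The intervals of the libraries overlapped in granulocyte progenitors and in immature neutrophils, and in mature neutrophils their nearest ends all but touched. Both receptors were lower in the MYC library at each stage. The near-equal proportions held for the classes as defined here: with cells under 5% mitochondrial UMIs the immature neutrophil ratio was -1.62 for Cxcr2 and -0.85 for Cxcr4, and at resolution 2 it was -0.25 and -0.66.

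Depth differed between the libraries in this class, at a median of 3907 UMIs in control and 5284 in MYC mature neutrophils, so shares of cells were also taken after each cell was thinned to 2000 UMIs, which left out 383 control and 318 MYC cells. Cxcr2 was then found in 89.9% (88.9 to 90.9) of control and 78.2% (76.7 to 79.7) of MYC mature neutrophils, and Cxcr4 in 35.5% (34.0 to 37.1) and 20.3% (18.9 to 21.8). Without thinning the Cxcr4 shares were 54.9% and 42.7%. Erythroid cells thinned alike had Cxcr2 in 3.82% and 2.47% and Cxcr4 in 12.1% and 6.85%.

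Ccr2, the receptor for monocyte egress (ENSMUSG00000049103, chromosome 9, 124101950 to 124113557, + strand), was a transcript of monocytes and conventional dendritic cells. Monocytes held 73.8% of its control UMIs and 83.7% of its MYC UMIs, and 97.5% and 97.2% of them had a UMI. The monocyte level was 1016 CPM (1001 to 1031) in control and 858 (847 to 870) in MYC cells, a log2 ratio of -0.24 (-0.27 to -0.21). The 2 monocyte clusters differed: cluster 7, led by Lgals1 and F13a1, had 670 and 707 CPM (0.08, 0.04 to 0.12), and cluster 8, led by Fn1 and by Ccr2 itself, had 1830.1 and 1288 CPM (-0.51, -0.55 to -0.46). When the libraries were clustered separately the monocyte ratio changed sign and was 0.11.

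Conventional dendritic cells had a Ccr2 level of 1258 CPM in control and 844 in MYC cells (-0.58, -0.67 to -0.49), and their interval lay above that of monocytes in the control but overlapped it in the MYC library. The summed monocyte markers in this class were 3686 and 2309 CPM, and their part in the Ccr2 and Cx3cr1 values of these cells was not tested. Nonclassical monocytes, which lose CCR2 as they mature, had 290.4 CPM (252 to 333) and 122 (92.5 to 157), a log2 ratio of -1.26 (-1.70 to -0.83). This was the only one of the 9 genes called in nonclassical monocytes, where 9.12% of 2995 genes tested were called and 4.61% were called lower, and 27.1% of the 59 MYC UMIs came from 1 cell. In nonclassical monocytes the summed markers of conventional dendritic cells were 1295 and 385 CPM, those of monocytes 2423 and 1726 CPM and those of immature neutrophils 4478 and 8876 CPM; their part in the Ccr2 ratio was not tested. T cells had 219 and 90.6 CPM (-1.27, -1.64 to -0.93), which moved to a log2 ratio of -0.42 when each cell was given equal weight, to -0.55 with cells classified by markers alone and to -0.90 with doublets kept. The summed markers of conventional dendritic cells in T cells were 359.6 and 89.4 CPM, and those of mature B cells 129 and 27.8 CPM; their part in the Ccr2 ratio was not tested.

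Some low Ccr2 levels were higher in the MYC library. In mature neutrophils 16.9 and 31.5 CPM were counted (0.90), in immature neutrophils 6.97 and 12.8 (0.88), and in erythroid cells 10.9 and 32.8 (1.59, called higher). Plasma cells had 15.8 and 11.9 CPM (-0.40, -1.17 to 0.31) and stem or multipotent progenitors 28.6 and 27.9 CPM (-0.04, -0.45 to 0.37). Monocytes were 8.28% of control and 12.8% of MYC cells, and the summed monocyte markers in erythroid cells were 82.0 and 162 CPM. These markers had 898 and 982 CPM in mature neutrophils and 913 and 882 CPM in immature neutrophils. The part of free monocyte RNA in these low levels was not tested. Of 8 genes with enough UMIs in erythroid cells, 4 were called higher (Ccr2, Cx3cr1, Cxcl2 and Ccl9), where 10.1% of 9840 genes tested were called, 4.82% higher. With doublets kept, the erythroid ratios of Ccr2 (0.84), Cx3cr1 (0.25) and Ccl9 (0.69) fell short of 2-fold, and that of Cxcl2 was 1.74.

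Cx3cr1, the receptor of patrolling monocytes (ENSMUSG00000052336, chromosome 9, 119901616 to 120069879, − strand), has a gene span that overlaps several others, 3 of them on its own strand (Gorasp1, Csrnp1 and Xirp1), and how reads in such overlaps were counted is not stated. Its level was highest in nonclassical monocytes, at 552 CPM (499 to 610) in control and 375 (322 to 433) in MYC cells, a log2 ratio of -0.56 (-0.82 to -0.30). A UMI of it was found in 89.1% and 84.5% of these cells. Conventional dendritic cells followed with 304 and 175 CPM (-0.80) and monocytes with 128 and 78.2 CPM (-0.71, -0.80 to -0.62). The order of these 3 classes was the same in both libraries, with no overlap between neighbours, and in each of them the MYC level was the lower one.

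Because monocytes were the more numerous, they held 55.9% of all control Cx3cr1 UMIs and 64.7% of those of the MYC library, against 9.81% and 5.86% for nonclassical monocytes. Cluster 8 had 261 and 151 CPM (-0.79) and cluster 7 had 70.9 and 52.4 CPM (-0.44), so both monocyte clusters showed the lower level. In monocytes with a Ccr2 UMI, 62.7% of control and 51.7% of MYC cells also had a Cx3cr1 UMI. The MYC macrophages had 61.9 CPM (54.4 to 70.1). In mature neutrophils 5.31 and 3.02 CPM were counted, near the 2.36 and 5.06 CPM of erythroid cells.

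**Figure D2:**
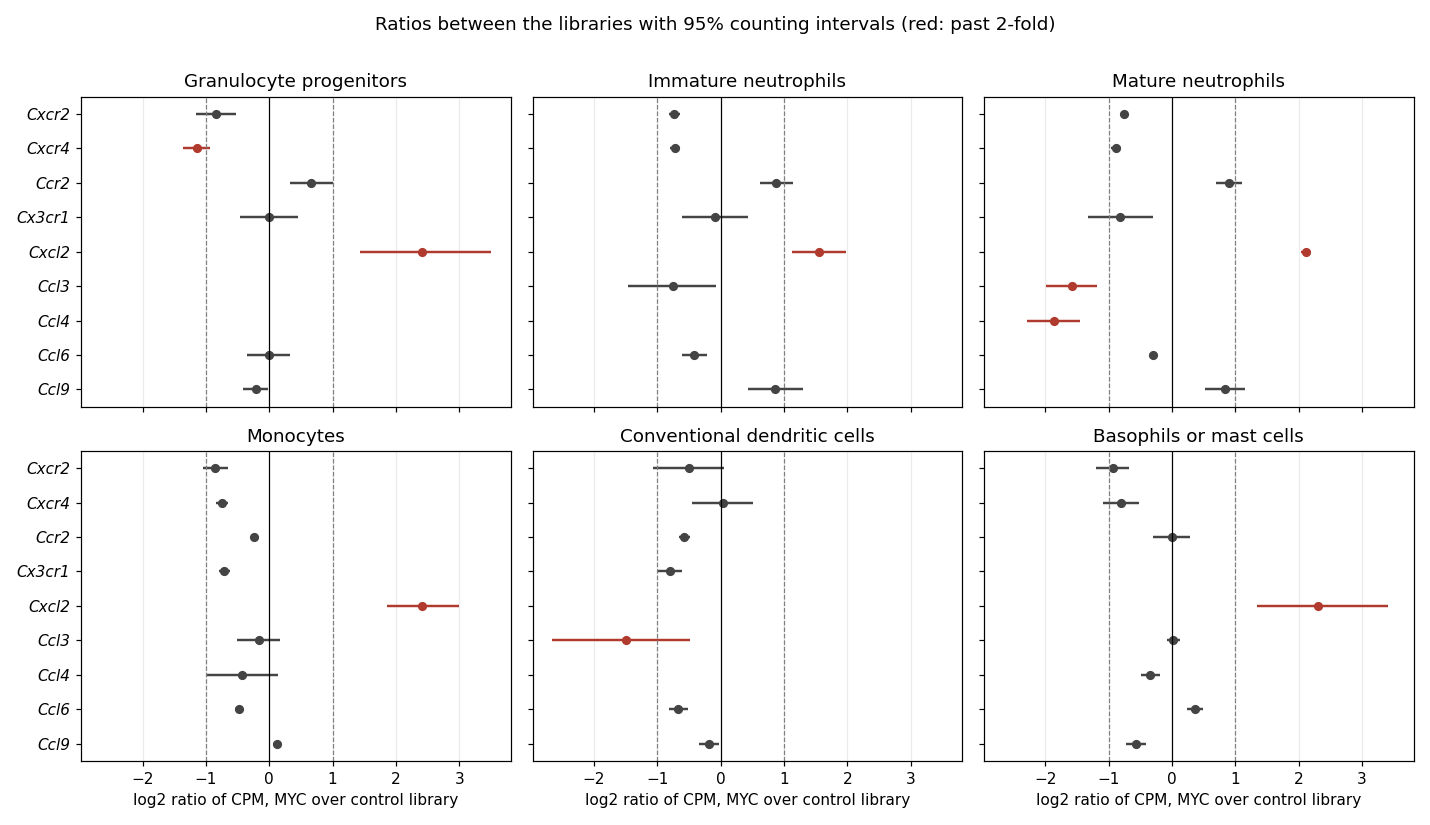
Log2 ratio of the CPM, MYC over control, for the genes with at least 50 UMIs in each of 6 classes, with 95% counting intervals; dashed lines mark 2-fold and red marks the called ratios. Cxcl2 was called higher in all of these classes where it had enough UMIs, and Cxcr2 and Cxcr4 lay below 0 in each neutrophil stage. In granulocyte progenitors, immature neutrophils and monocytes the MYC levels of Cxcl2 were close to the erythroid level and are not read as expression. A single cell of each library held most Cxcl2 UMIs of basophils or mast cells.

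Cxcl2, a ligand of CXCR2 that recruits neutrophils (ENSMUSG00000058427, chromosome 5, 90903871 to 90905938, + strand), had the largest difference of the 9 genes in mature neutrophils. These cells held 86.5% of its control UMIs and 89.7% of its MYC UMIs, with 1520 and 7185 UMIs. The level was 92.7 CPM (88.1 to 97.5) in control and 402 (392 to 411) in MYC mature neutrophils, a 4.33-fold difference and a log2 ratio of 2.11 (2.03 to 2.20). A UMI of it was found in 13.3% of control and 39.7% of MYC cells, and after thinning to 2000 UMIs in 9.82% (8.9 to 10.8) and 29.9% (28.3 to 31.6). Over the 13 other ways of processing, its log2 ratio lay between 1.56 and 2.36.

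Within clusters the difference was as large as in the class. Cxcl2 had 21.8 and 92.9 CPM in cluster 0, 148 and 925 CPM in cluster 3, and 164 and 709 CPM in cluster 5, which are log2 ratios of 2.09, 2.65 and 2.12. Cxcl2 and Ccl6 are among the 10 leading genes of cluster 5, although both were kept out of the genes used for clustering, so their levels there are a description only. Cluster 3 was mostly control and cluster 5 mostly MYC cells, yet the control cells of both clusters had similar Cxcl2 levels and the MYC cells of both had higher ones. The share of cells with a UMI was 6.5% and 19.0% in cluster 0, 16.7% and 52.1% in cluster 3, and 19.6% and 57.5% in cluster 5.

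**Figure D3:**
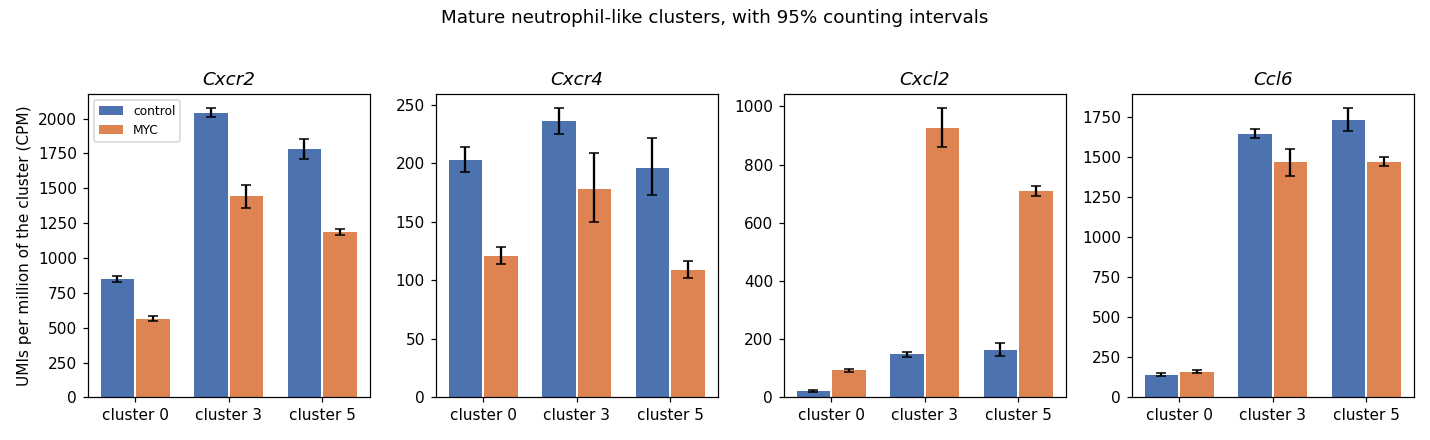
Level of Cxcr2, Cxcr4, Cxcl2 and Ccl6 (CPM of the cluster) in the mature neutrophil clusters 0, 3 and 5, control in blue and MYC in orange, with 95% counting intervals. Cxcr2 and Cxcr4 were lower and Cxcl2 higher in the MYC cells of all 3 clusters, while Ccl6 was slightly higher in cluster 0 and lower in clusters 3 and 5.

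Stress during cell isolation can raise such chemokine transcripts, and 15 genes known for it were summed after the results were seen. Their sum was 4992 CPM in control and 5062 in MYC mature neutrophils, with Egr1 called higher (74.7 and 168 CPM) and Atf3 called lower (4.03 and 1.62 CPM) among 13 with enough UMIs, where 2.74% of all genes were called higher and 7.02% lower, and their median log2 ratio was 0.06 beside -0.22 for all genes. In immature neutrophils the sum was 1076 and 1341 CPM, with 3 of 12 called higher, where 2.42% of all genes were, and a median of 0.45 beside -0.21. In granulocyte progenitors it was 432 and 625 CPM, with 2 of 11 called higher, where 5.01% of all genes were called in either direction, and a median of 0.59 beside -0.28. In erythroid cells it was 479 and 569 CPM, with 3 of 13 called higher and 1 lower, where 4.82% of all genes were called higher, and a median of 0.77 beside -0.07. Monocytes had a sum of 1015 and 1093 CPM and a median of 0.20 beside -0.16. There 1 of 15 was called higher and 2 lower, where 5.87% of all genes were called. Basophils or mast cells had 2857 and 3444 CPM and a median of 0.26 beside -0.19. None of 12 was called there, where 5.69% of all genes were. The part of isolation stress in the Cxcl2 difference was not tested.

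Cxcl2 was also called higher in granulocyte progenitors (1.23 and 6.53 CPM), immature neutrophils (2.36 and 6.91 CPM), monocytes (1.79 and 9.50 CPM), basophils or mast cells (6.43 and 31.9 CPM) and erythroid cells (0.834 and 6.65 CPM). It was the only one of the 9 genes called in immature neutrophils, in monocytes and in basophils or mast cells, where 5.73%, 5.87% and 5.69% of all genes tested were called, and 2.42%, 1.78% and 1.27% were called higher. The Cxcl2 ratio of immature neutrophils, 1.55, fell short of 2-fold with cells under 5% mitochondrial UMIs (0.49) and with at least 1000 UMIs and 500 genes (0.68). The levels in progenitors, immature neutrophils and monocytes of the MYC library were close to the level in erythroid cells, which should not express the gene, and are not read as expression. Summed mature neutrophil markers in erythroid cells were 477 CPM in control and 460 in MYC cells. In basophils or mast cells only 1.61% and 2.70% of cells had a Cxcl2 UMI, and 63.6% and 51.1% of the UMIs came from 1 cell.

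The start of the Cxcl2 gene is shown because it is the gene with the largest difference in mature neutrophils, beside those of Ccl9, the only other one with a match to the same motif, and Ccl3, a ligand without one. Windows of 250 bases before the RefSeq start on GRCm38.p6 were found for 8 of the 9 genes, and for Ccl4 none is in the table. Each strand was searched for the NF-kB-type motif, which reads GGG, then NN for any bases, then TTTCC without a gap, and its matches are in capitals. Cxcl2, chr5:90903649-90903870, + strand, is printed without the last 28 bases of its window, which lie inside the GENCODE gene. Ccl9, chr11:83578637-83578886, and Ccl3, chr11:83649379-83649628, are on the − strand, and all are written 5′ to 3′.
Cxcl2: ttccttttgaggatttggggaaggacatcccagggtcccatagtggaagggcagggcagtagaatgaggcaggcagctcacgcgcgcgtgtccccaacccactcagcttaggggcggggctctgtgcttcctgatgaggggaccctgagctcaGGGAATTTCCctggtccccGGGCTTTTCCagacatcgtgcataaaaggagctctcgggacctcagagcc
Ccl9: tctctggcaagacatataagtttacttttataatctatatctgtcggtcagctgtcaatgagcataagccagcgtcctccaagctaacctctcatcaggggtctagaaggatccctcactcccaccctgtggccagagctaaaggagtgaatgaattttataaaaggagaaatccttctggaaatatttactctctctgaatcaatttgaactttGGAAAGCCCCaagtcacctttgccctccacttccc
Ccl3: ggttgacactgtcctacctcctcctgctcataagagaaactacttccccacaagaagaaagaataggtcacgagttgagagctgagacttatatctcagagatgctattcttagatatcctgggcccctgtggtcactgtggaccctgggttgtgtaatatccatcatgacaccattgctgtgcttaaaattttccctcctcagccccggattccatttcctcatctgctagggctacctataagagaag
The Cxcl2 window held 2 matches, which begin 97 and 78 bases before the RefSeq start, and the Ccl9 window held 1 on the other strand, at 35 bases. Of 32851 windows of this length, 1.41% held at least 1 match. The E-box CACGTG, the core sequence that MYC binds with its partner, was in none of the 8 windows and in 6.02% of all windows. A match is a run of letters, and neither a match nor its absence shows whether a factor binds.

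Ccl6 (ENSMUSG00000018927, chromosome 11, 83587882 to 83593087, − strand), a CCR1 ligand of myeloid cells, was the other ligand at high level in mature neutrophils. It overlaps E230016K23Rik on the opposite strand, and whether counting used the strand is not stated. Its level was 979 CPM (964 to 995) in control and 795 (782 to 808) in MYC mature neutrophils, a log2 ratio of -0.30 (-0.33 to -0.27), close to the -0.22 of all genes. This ratio was -0.92 with at least 1000 UMIs and 500 genes and -0.90 with cells under 5% mitochondrial UMIs. Both filters set the classes anew, so mature neutrophils need not be like cells in both libraries there. Clusters 0, 3 and 5 had log2 ratios of 0.17, -0.17 and -0.24, and without the clusters that came mostly from 1 library the class ratio was the 0.17 of cluster 0. The direction of Ccl6 in mature neutrophils therefore rested on clusters 3 and 5.

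Between clusters Ccl6 differed much more than between libraries. It had 142 and 159.98 CPM in cluster 0, with a UMI in 34.7% and 39.6% of cells, but 1645 and 1466 CPM in cluster 3 and 1732 and 1470.5 CPM in cluster 5. Immature neutrophils had 18.1 and 13.6 CPM, close to the 17.4 and 17.8 CPM of erythroid cells. Monocytes had 292 and 209 CPM (-0.48, -0.54 to -0.43), nonclassical monocytes 522 and 472 CPM (-0.15, -0.39 to 0.09) and basophils or mast cells 628 and 806 CPM (0.36, 0.24 to 0.48).

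Ccl9 (ENSMUSG00000019122, chromosome 11, 83572919 to 83578636, − strand), which lies next to Ccl6 and also binds CCR1, had its UMIs mainly in monocytes, 56.2% of the control ones and 71.4% of the MYC ones. The monocyte level was 233 CPM (226 to 240) and 253 (247 to 259), a log2 ratio of 0.12 (0.06 to 0.18), whose sign turned to -0.01 when the 20 most abundant genes were left out of the total. Cluster 7 had 142 and 185 CPM (0.38) and cluster 8 had 447 and 446 CPM (0.00, -0.08 to 0.08). Basophils or mast cells had 506 and 342 CPM (-0.56, -0.72 to -0.40) and conventional dendritic cells 333 and 295 CPM (-0.18).

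Early progenitors carried Ccl9 as well. Stem or multipotent progenitors had 50.2 CPM (43.6 to 57.4) in control and 77.0 (67.7 to 87.3) in MYC cells, a log2 ratio of 0.62 (0.35 to 0.89) that did not reach 2-fold. In this class the summed markers of granulocyte progenitors were 3053 and 4633 CPM, those of eosinophils 190.01 and 1432 CPM and those of immature neutrophils 2748 and 1395 CPM; their part in the Ccl9 difference was not tested. None of the 6 genes with enough UMIs in stem or multipotent progenitors was called, where 3.23% of 9183 genes tested were called. Granulocyte progenitors had 59.3 and 51.1 CPM (-0.21), a ratio whose sign turned in 4 of 13 alternatives, up to 0.75, and immature neutrophils 2.58 and 4.69 CPM, no higher than the 3.29 and 10.7 CPM of erythroid cells. Over the neutrophil stages Ccl9 was thus highest in granulocyte progenitors, where Ccl6 had 18.7 and 18.6 CPM, and Ccl6 was highest in mature neutrophils, where Ccl9 had 7.81 and 13.9 CPM.

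Ccl3 and Ccl4, neighbouring genes on chromosome 11 (ENSMUSG00000000982, 83647844 to 83649355, − strand, and ENSMUSG00000018930, 83662584 to 83664683, + strand), were foremost basophil or mast cell transcripts. Ccl3 had 847 CPM (804 to 891) in control and 860.5 (814 to 909) in MYC basophils or mast cells, a log2 ratio of 0.02 (-0.09 to 0.13). Ccl4 had 505 CPM (472 to 540) and 398 (366 to 432) there, a log2 ratio of -0.34 (-0.50 to -0.19). Both lead this cluster together with Prss34, Mcpt8 and Cpa3, so their height in it is a description. Of its cells, 81.2% and 81.1% had a Ccl3 UMI, and of those with a Ccl4 UMI 94.5% in control and 98.8% in MYC cells also had Ccl3.

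The cells behind the other Ccl3 and Ccl4 UMIs differed between the libraries. MYC macrophages had 139 CPM (128 to 151) of Ccl3 and 346 (328 to 365) of Ccl4, and they held 23.7% and 57.0% of the UMIs of these genes in their library. The 17 control macrophages held 0.144% and 1.58%. Their number depended on the clustering: with the control clustered on its own, 186 control cells fell in a cluster led by C1qa, C1qc and C1qb, and at resolution 0.5 a further cluster named macrophages, led by Mrc1 and Vcam1, held 52 control and 27 MYC cells. Over all kept cells Ccl4 had 12.7 CPM in control and 23.4 in the MYC library, and Ccl3 had 17.4 and 22.6 CPM. Of the 2403 Ccl4 UMIs of the MYC library, 1370 lay in macrophages, and the control had 1518 Ccl4 UMIs in all. The part of macrophages in the Ccl4 difference between the libraries was not tested.

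**Figure D4:**
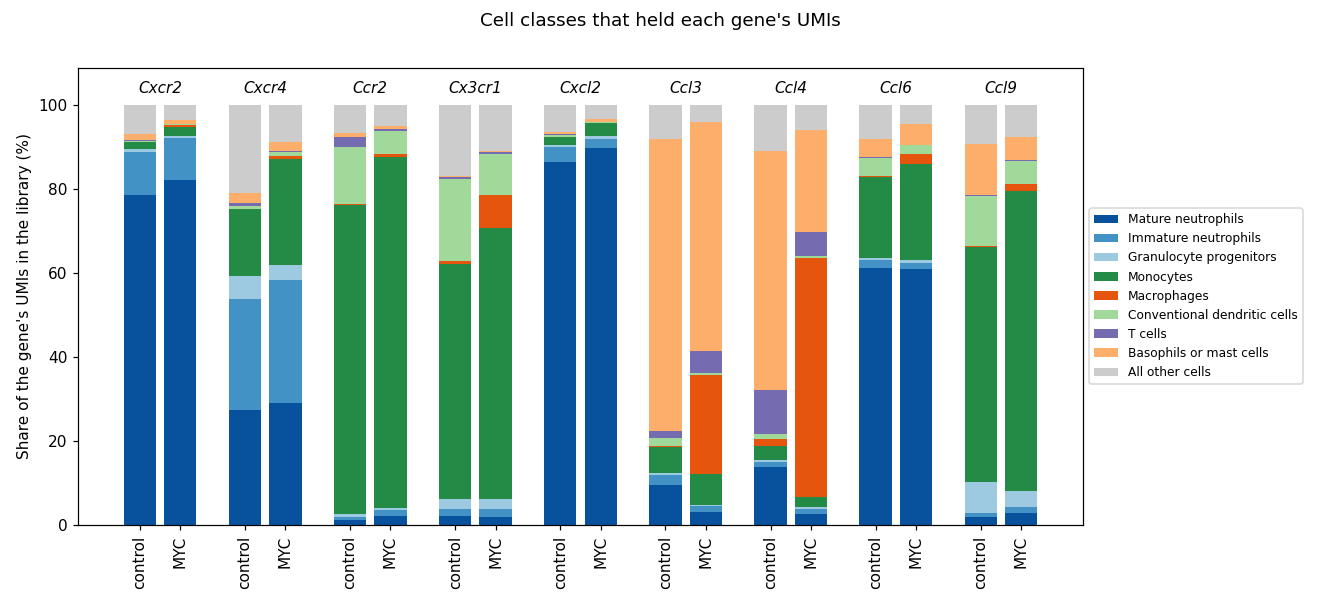
Share of each gene's UMIs (%) by cell class in the control and MYC libraries. Macrophages held 57.0% of Ccl4 and 23.7% of Ccl3 UMIs in the MYC library, while Cxcr2, Cxcl2 and Ccl6 had 60.9% or more of theirs in mature neutrophils in both.

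In mature neutrophils Ccl3 had 12.1 CPM (10.5 to 13.9) in control and 4.03 (3.15 to 5.07) in MYC cells, a log2 ratio of -1.59 (-1.995 to -1.19), and Ccl4 had 12.8 and 3.52 CPM (-1.86, -2.29 to -1.45). Both were called lower, but 180 of the 198 control Ccl3 UMIs lay in cluster 3, the mostly control cluster, where the levels were 23.3 and 29.4 CPM (0.33, -0.35 to 0.95). With the clusters weighted to the same mix in both libraries the Ccl3 ratio turned to 0.24, and it was -0.18 with each library clustered on its own. Ccl4 had 19.8 and 14.7 CPM in cluster 3 and 35.7 and 4.20 CPM in cluster 5, where 1 cell held 81.2% of the 48 control UMIs, and 0.67 was its log2 ratio in cluster 0 alone. Only 2.77% and 1.59% of mature neutrophils had a Ccl3 UMI. The summed basophil or mast cell markers in mature neutrophils were 685 and 421 CPM, and their part in both ratios was not tested.

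T cells had the largest ratio of Ccl3, with 14.0 CPM (9.83 to 19.2) in control and 149.8 (125 to 179) in MYC cells, a log2 ratio of 3.42 (2.88 to 3.99) from 37 and 124 UMIs, 29.0% of the latter in 1 cell. Ccl4 had 60.0 and 168 CPM there (1.49, 1.15 to 1.82), with 60.4% of the control UMIs and 29.5% of the MYC UMIs in 1 cell. Of the 9 genes, 3 were called in T cells, Ccl3 and Ccl4 higher and Ccr2 lower, where 5.77% of 6494 genes tested were called. This cluster was also led by Ccl5 and Il2rb, and the summed natural killer markers in it were 1572 and 1667 CPM beside 2532 and 3135 CPM for T cell markers. Immature neutrophil markers in T cells were 4255 and 6977 CPM, and the isolation stress genes summed to 1007 and 1237 CPM, with 2 of 10 called higher; the part of either in these ratios was not tested. Conventional dendritic cells had 16.3 and 5.75 CPM of Ccl3 (-1.50, -2.66 to -0.48), from 42 and 10 UMIs, the only one of the 9 genes called there, where 12.5% of 7101 genes tested were called and 6.6% were called lower. Mature B cells had only Ccr2 called (15.3 and 39.7 CPM, from 44 and 28 UMIs, beside 10.9 and 32.8 CPM in erythroid cells), where 10.9% of 6291 genes tested were called and 2.19% were called higher. This Ccr2 ratio of 1.38 fell to 0.17 with cells under 5% mitochondrial UMIs, 0.36 with at least 1000 UMIs and 500 genes, 0.29 with cells classified by markers alone and 0.97 with each library clustered on its own. In T cells the Ccl4 ratio was 0.81 with cells classified by markers alone, and in conventional dendritic cells the Ccl3 ratio was -0.76 with at least 1000 UMIs and 500 genes.

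Genes that work with these receptors and ligands were described from 4 lists of 69 genes in all: 22 other chemokine ligands, 19 other receptors, 16 adhesion molecules and egress receptors and 12 signalling genes. In mature neutrophils 36 of them had enough UMIs, and 2 were called higher and 4 lower, in a class where 2.74% of all genes tested were called higher and 7.02% lower. Cxcl3, a further CXCR2 ligand, was called higher at 0.976 and 3.07 CPM (1.66, 0.83 to 2.56), from 16 and 55 UMIs, as was Rgs1, a brake on chemokine receptor signalling, at 2.38 and 4.81 CPM (1.01). Rgs2, of the same family, was called lower at 629 and 268 CPM (-1.23, -1.28 to -1.18). Cxcr1, the receptor most like Cxcr2, was lower at 5.19 and 1.45 CPM (-1.83), and the integrin subunits Itgax (-1.36) and Itga4 (83.1 and 41.1 CPM, -1.01) were lower too. Median-of-ratios scaling adds 0.22 to the log2 ratios of this class, which takes Itga4 short of 2-fold. The median log2 ratios of the lists in mature neutrophils were -0.28 for ligands, -0.16 for receptors, -0.53 for adhesion molecules and -0.49 for signalling genes, beside -0.22 for all genes.

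Immature neutrophils had 31 of the list genes with enough UMIs and none was called, where 5.73% of all genes tested were. In granulocyte progenitors, where 5.01% of all genes were called, 28 had enough, with Ccl5 called lower (5.93 and 0.994 CPM) and Rgs1 called higher (1.57 and 6.39 CPM). Summed T cell markers in these progenitors were 6.82 and 2.70 CPM, and their part in the Ccl5 ratio was not tested. In stem or multipotent progenitors, where 3.23% of all genes were called, 30 had enough, and Pik3cg, the kinase subunit downstream of chemokine receptors, was called lower (68.9 and 33.5 CPM, -1.04). Median-of-ratios scaling adds 0.12 to the log2 ratios of this class, which takes Pik3cg short of 2-fold. In monocytes 40 had enough and 5 were called, where 5.87% of all genes were called and 1.78% were called higher: the junction molecule F11r (1.21 and 8.30 CPM, 2.77) and the platelet chemokine Ppbp (0.866 and 2.06 CPM, 1.25) were called higher. The interferon-induced ligand Cxcl9 (8.60 and 0.351 CPM, -4.62), Ccl5 (11.5 and 2.14 CPM, -2.42) and Ccr9 (4.56 and 1.25 CPM, -1.87) were called lower in monocytes. Summed T cell markers in monocytes were 12.6 and 5.41 CPM and those of plasmacytoid dendritic cells 349 and 254 CPM. Their part in the Ccl5 and Ccr9 ratios was not tested. At clustering resolution 2 a cluster named monocytes and led by Cxcl10, Ifit3 and Ifit2 held 43 control and 3 MYC cells; its part in the Cxcl9 ratio was not tested.

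Across the 27 profiles of a class in 1 library with at least 50 cells, the genes most like each of the 9 were listed by Pearson correlation of log2(CPM + 1) among 10637 genes with at least 500 UMIs. The profiles share their libraries, so the values are a description. Cxcr2 was most like Adam8 (0.93), Numb (0.92) and Mmp9 (0.92), Cxcl2 most like Stfa2l1 (0.87), Prok2 (0.87) and Mcam (0.85), and Ccl6 most like Nlrp3 (0.93), L1cam (0.88) and Hacd4 (0.88). Ccr2 was most like Galnt9 (0.91), Tmem106a (0.89) and S100a4 (0.87), Cx3cr1 most like Pid1 (0.95), Lrp1 (0.95) and Csf1r (0.94), and Ccl9 most like Hsd17b4 (0.91), Adora2b (0.89) and Nav1 (0.89). Ccl3 and Ccl4 were most like each other (0.92), followed by Disp1 (0.81) and Cd200r1 (0.79) for Ccl3 and by Rgs1 (0.84) and Disp1 (0.80) for Ccl4. Cxcr4 had the lowest best match of the 9, Msl1 at 0.80, followed by Xylt1 (0.80) and Phf20l1 (0.79).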

How the data were processed

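The deposited values are whole UMI counts of each gene in each barcode, which the authors made with Cell Ranger (per the file headers, version 6.0.0). GRCm38 (mm10) and Seurat are named in the submitters' processing notes. How reads on overlapping genes were counted is not given in the sources used here. Gene positions are those of GENCODE on GRCm38, matched by identifier for 32235 of 32286 features. A cell needed 500 UMIs, 200 genes and a mitochondrial share below 10%. Scrublet, in scanpy 1.11.5 and with 0.8% doublets expected per 1000 barcodes, marked 701 control (4.53%) and 251 MYC cells (1.95%), which were removed; more doublets will remain, and its threshold in the MYC library varied with the random seed.

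Leiden clustering was run once on the cells of both libraries (resolution 1, seed 0; 2000 variable genes, 30 components, 15 neighbours), with the 9 genes, the list genes and Myc kept out. A cluster was named from markers of 19 cell types, by its 10 leading genes, if at least 3 markers were detected. Clusters of very low median UMIs for their library stayed unnamed, a rule added once the data had been seen. Clusters without a marker among their 10 leading genes stayed unnamed too. Unnamed cells numbered 2804 in control (19.0%) and 2989 in MYC (23.6%), and the classes compared do not include them. Most lay in cluster 1 (2254 control, 437 MYC), which had low UMIs, and cluster 2 (231 control, 2225 MYC), which lacked a leading marker. UMIs were summed per class and library and divided by the class total (CPM). Intervals are exact at 95% (Poisson for levels, conditional binomial for ratios, Clopper-Pearson for shares); where no UMI was counted the upper end is given. The ratio intervals were tested on simulated Poisson counts only. These leave out the clumping of UMIs in single cells, which the test therefore does not cover.

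The 9 genes and all lists were chosen with earlier results of these data known. All 9 are named, with, of the lists, up to 5 called ratios in each direction in the neutrophil stages, monocytes and stem or multipotent progenitors, and for each of the 9 up to 3 genes of most similar profile. The isolation stress genes were added after the data were seen. Other ways of processing were other clustering, filters, scaling, weighting and classification of cells. No p-value is given.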

Additional observations from a re-analysis of the deposited data

Results flagged for a closer look

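For 3 of the genes the ratio between the libraries was called in opposite directions in different classes; the difference between classes was not tested. Ccr2 had log2 ratios of 1.38 in mature B cells and 1.59 in erythroid cells, against -1.26 in nonclassical monocytes and -1.27 in T cells. Erythroid cells give the background level here, and the Ccr2 levels of mature B cells were close to theirs. The higher ratios of both classes are therefore not read as a change in expression. Over the alternatives that could be run, these ratios came as close to 0 as 0.17 in mature B cells, 0.84 in erythroid cells and -0.42 in T cells. Ccl3 had a log2 ratio of 3.42 in T cells, against -1.59 in mature neutrophils and -1.50 in conventional dendritic cells. The mature neutrophil ratio of Ccl3 turned to 0.24 with the clusters weighted to the same mix, and that of dendritic cells was -0.76 with at least 1000 UMIs and 500 genes. Ccl4 had a log2 ratio of 1.49 in T cells, against -1.86 in mature neutrophils, which turned to 0.67 without the clusters of 1 library, and the T cell ratio was 0.81 with cells classified by markers alone.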

How the results depend on the processing

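All values are log2 ratios, MYC over control, unless said otherwise. Cxcr2, Cxcr4 and Cxcl2 in mature neutrophils, Cx3cr1 in monocytes and Ccl4 in basophils or mast cells kept their sign in all 13 alternatives. In mature neutrophils Cxcr2 was -0.67 at resolution 0.5, -0.63 at resolution 2, -1.14 with at least 1000 UMIs and 500 genes, -1.12 under 5% mitochondrial UMIs, -0.70 with doublets kept, -0.84 with each library clustered on its own, -0.54 with median-of-ratios scaling, -0.59 without clusters with over 80% of cells from 1 library, -0.69 without the 20 most abundant genes and -0.56 with clusters weighted to the same mix, an alternative chosen after seeing the data. Cxcr4 there was -0.98 with the stricter UMI and gene minimum, -0.66 with median-of-ratios scaling, -0.75 without the clusters of 1 library and -0.67 at the same mix. In the order of the Cxcr2 values, Cxcl2 was 2.23, 2.36, 1.56, 1.58, 2.20, 2.23 and 2.33, then 2.35 at the same mix and 2.25 with cells classified by markers alone. Ccl6 in that order was -0.18, -0.058, -0.92, -0.90, -0.22, -0.45, -0.083, 0.17 (reversed), -0.23 and -0.17.

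In monocytes Ccr2 was -0.28 at resolution 0.5, -0.33 with the stricter minimum, -0.31 by markers alone, -0.41 under 5% mitochondrial UMIs, -0.19 at the same mix, -0.27 with doublets kept, 0.11 (reversed) with each library on its own, -0.33 as a mean over cells, -0.084 with median-of-ratios scaling and -0.38 without the 20 genes. Cx3cr1 was -0.80 at resolution 0.5, -0.87 under 5% mitochondrial UMIs, -0.42 with each library on its own, -0.55 with median-of-ratios scaling and -0.84 without the 20 genes. Ccl9 was 0.057, 0.027, 0.0088, 0.18, 0.44, 0.053, 0.28 and -0.013 (reversed) at resolution 0.5, the stricter minimum, under 5% mitochondrial UMIs, the same mix, each library on its own, as a mean over cells, with median-of-ratios scaling and without the 20 genes. In basophils or mast cells Ccl3 was -0.12 as a mean over cells and 0.21 with median-of-ratios scaling, where Ccl4 was -0.16.

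Among the ratios whose counting interval excluded 0, signs also turned for Ccl3 in mature neutrophils (0.24 at the same mix), Ccl4 in mature neutrophils (0.67 without the clusters of 1 library), Ccl6 in immature neutrophils (0.42 at resolution 2, 0.12 by markers), Ccl9 in conventional dendritic cells (0.028 as a mean over cells), Ccl9 in granulocyte progenitors (0.031 at resolution 0.5, 0.75 under 5% mitochondrial UMIs, 0.12 by markers, 0.063 with median-of-ratios scaling) and Ccl3 in erythroid cells (-0.13 by markers, -0.15 as a mean over cells, -0.28 without the richest cell of each library). The count of pairs called lower, 7 here, was 16 under 5% mitochondrial UMIs, 15 by markers and 12 without the 20 genes. The share of all genes called under these settings was not taken. With list genes of at least 10 UMIs, or of at least 1, 12 were called in mature neutrophils and 8 in monocytes, in place of 6 and 5. The difference in the share of mature neutrophils with a UMI, in percentage points at 2000 UMIs per cell, was -11.7 for Cxcr2, -15.2 for Cxcr4 and 20.1 for Cxcl2; it was -3.10, -12.2 and 26.4 without thinning and -16.7, -8.88 and 16.9 at 1000 UMIs. The cause of these changes was not tested.

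There was no value for stem or multipotent progenitors at resolution 0.5, for conventional dendritic cells at that resolution and with each library clustered on its own, and for nonclassical monocytes under either stricter filter, where these classes were not named or held under 50 cells. No paired analysis was possible because there is 1 library per group. Ratios from few UMIs, such as those of Ccl3 and Ccl4 outside basophils or mast cells, are limited by counting.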

Other observations

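Conventional dendritic cells stood out for ligands outside the set of 9, and the genes given here were chosen after their values were seen. Their cluster was led by MHC class II genes, with Mrc1, Apoe and the macrophage marker Axl also among its leading genes. Of 6 other chemokine ligands with enough UMIs in this class, 5 were called lower in the MYC library, where 6.6% of 7101 genes tested were called lower, and the median log2 ratio of the 6 was -2.45 beside -0.05 for all genes tested. Cxcl10, an interferon-induced ligand of CXCR3, had 254 CPM in control and 5.18 in MYC cells (-5.62, from 655 and 9 UMIs), and Cxcl9, another such ligand, had 98.1 and 15.5 CPM (-2.66). Ccl5 (22.9 and 5.75 CPM), Ccl8 (19.0 and 4.03 CPM) and the platelet chemokine Pf4 (25.6 and 3.45 CPM) were the others. Vcam1, an adhesion molecule that marks marrow macrophages and stroma, had 336.5 and 78.3 CPM (-2.10). The summed macrophage markers in this class were 1700 CPM in control and 1207 in MYC cells, erythroid markers were 2651 and 837 CPM, and their part in these differences was not tested. At clustering resolution 2, 43 control and 3 MYC cells formed a cluster of their own led by Cxcl10, Ifit3 and Ifit2, which was named monocytes by its markers; the part of these cells in the Cxcl10 value was not tested.

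In T cells 3 of 34 list genes with enough UMIs were called, where 5.77% of all genes were. The ligand Ccl5 had 1678 CPM in control and 5706 in MYC cells (1.77, 1.71 to 1.83), the lymphoid egress receptor S1pr1 had 89.0 and 39.9 CPM (-1.16) and the gut-homing receptor Ccr9 had 41.9 and 10.9 CPM (-1.95, from 111 and 9 UMIs). In plasma cells 2 of 23 were called, where 13.6% of all genes were, and the summed monocyte markers were 389 and 3104 CPM. Plasma cells had 14.2 and 2.27 CPM of the homing receptor Cxcr3 (-2.64, from 71 and 4 UMIs).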
